A study of Homo sapiens with 6 samples.

Results

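The aryl hydrocarbon receptor (AHR) and genes tied to its activity were followed in LNCaP, an androgen-responsive human prostate cancer cell line, with and without an extract of white button mushroom (WBM, Agaricus bisporus). The set was a list of 9 symbols, AHR, ARNT, AHRR, CYP1A1, CYP1A2, CYP1B1, TIPARP, ALDH3A1 and LRAT, chosen with earlier results of these data known. All 9 were found among the 23354 genes of the read-count table. Every library came from cells given 1 nM dihydrotestosterone (DHT), a potent androgen, for 48 h. In 3 libraries DHT was the sole agent named (DHT), and in the other 3 the extract was added at 3 µL/mL (DHT+WBM). Cells without DHT are not among the libraries used here, and a vehicle for the extract is not named. Nothing in the labels tells if the 3 libraries of a group come from independent cultures. The p-values therefore reflect how far those libraries scatter, and that scatter may be technical.

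AHR is a ligand-activated transcription factor of the bHLH-PAS family that senses planar aromatic compounds, including plant and microbial products. Without ligand it is held in the cytosol by HSP90 and its cochaperones, p23 among them. With ligand it enters the nucleus, pairs with ARNT and binds xenobiotic response elements, whose core is written GCGTG. Its best known targets are the CYP1 monooxygenases, and it also induces 2 of its own inhibitors, the repressor AHRR and the ADP-ribosyltransferase TIPARP.

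Promoter sequences are shown for the CYP1A pair and for the genes of both inhibitors, because these carry or lack the core motif beside genes whose levels are compared here. They are the 250 bases before the first listed start of each gene, 5′ to 3′ on the gene's strand, from RefSeq on GRCh38.p14. Capitals mark GCGTG, or CACGC where the motif lies on the other strand. The sequences lie at chr15:74725529-74725778 (minus strand), chr15:74748595-74748844 (plus), chr3:156674340-156674589 (plus) and chr5:321464-321713 (plus).
CYP1A1: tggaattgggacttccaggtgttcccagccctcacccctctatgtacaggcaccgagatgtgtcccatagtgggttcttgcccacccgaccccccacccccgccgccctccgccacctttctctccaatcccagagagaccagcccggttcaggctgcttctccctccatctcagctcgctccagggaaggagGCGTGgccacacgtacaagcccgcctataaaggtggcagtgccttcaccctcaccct
CYP1A2: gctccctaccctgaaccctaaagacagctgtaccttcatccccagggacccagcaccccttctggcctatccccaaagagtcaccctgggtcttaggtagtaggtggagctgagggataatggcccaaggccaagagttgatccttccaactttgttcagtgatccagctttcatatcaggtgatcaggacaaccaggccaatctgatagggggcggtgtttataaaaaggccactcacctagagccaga
TIPARP: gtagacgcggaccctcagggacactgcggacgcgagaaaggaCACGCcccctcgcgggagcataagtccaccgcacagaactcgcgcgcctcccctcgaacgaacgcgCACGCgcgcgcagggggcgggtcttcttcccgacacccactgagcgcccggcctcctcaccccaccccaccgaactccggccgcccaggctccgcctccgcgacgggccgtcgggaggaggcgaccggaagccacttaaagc
AHRR: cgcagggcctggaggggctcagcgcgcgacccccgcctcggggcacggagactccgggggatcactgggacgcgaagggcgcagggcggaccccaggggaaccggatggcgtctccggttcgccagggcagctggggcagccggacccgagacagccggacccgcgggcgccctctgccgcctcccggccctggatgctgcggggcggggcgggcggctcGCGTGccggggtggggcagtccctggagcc

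Of the 9 genes, 7 matched the promoter table, with 10 listed starts, and CYP1B1 and ALDH3A1 were not matched. GCGTG was found on either strand in 3 of the 7: once in CYP1A1, 53 to 57 bases upstream of the start, 2 times before the first start of TIPARP, and before both starts of AHRR. The window before the first AHRR start held the only match to the longer form TNGCGTG, which contains GCGTG. The bases after that first AHRR start were not found in an AHRR transcript of GENCODE 29, while those after its second start, whose window held GCGTG 2 times, were. The windows of AHR, ARNT, CYP1A2 and LRAT held no match. Across all 35116 listed promoter windows of the same length, 32.2% held GCGTG and 4.52% held TNGCGTG, and among the 15092 windows of tested genes the shares were 43.2% and 5.62%. A match is a description of these letters and not a bound site.

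The 6 libraries held 19127357 to 21490953 counts each. Levels below are CPM, library-scaled read counts with TMM factors, and each log2 fold change compares DHT+WBM with DHT and carries its standard error (SE), from edgeR's quasi-likelihood test over 13466 genes with Benjamini-Hochberg adjustment. A gene is called when its adjusted p is under 0.05. Calls were common in this comparison, with 29.2% of all tested genes higher and 29.0% lower. Luminal prostate keratins KRT8 and KRT18 were abundant in both groups (262 ± 20.7 and 244 ± 11.7 CPM in DHT, SD, n = 3), while the basal markers KRT5, KRT14, TP63 and KRT15 summed to at most 0.382 CPM in any library, with KRT5 at 0 counts. Of the 4 immune markers, CD68, a lysosomal glycoprotein also used as a macrophage marker, rose from 23.0 ± 1.15 to 84.5 ± 4.61 CPM, and it made up nearly all of a summed level of 21.6 to 23.8 CPM in DHT and 80.6 to 89.7 CPM in DHT+WBM. PTPRC and CD3E, which mark leukocytes and T cells, had 1 and 1 counts over the DHT libraries and 2 and 2 over the DHT+WBM libraries. Of the 4 stromal markers, COL1A2 had no count and the summed level was 11.7 to 13.8 CPM in DHT and 12.6 to 13.6 CPM in DHT+WBM. Hepatocyte markers, listed because CYP1A2 is mainly a liver enzyme, summed to 13.6 to 15.9 CPM in DHT and 15.7 to 17.7 CPM in DHT+WBM, with ALB lower at a log2 fold change of -0.57 and TTR higher at 0.37. The part of these marker changes in the results below was not tested.

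Of the 9 members, 8 passed the filter on low counts, and all 8 had positive log2 fold changes. The test called 7 of them higher and 0 lower, where 29.2% of all tested genes were called higher. Their median on the log2 scale was 1.03, and that of all tested genes was 0.00. No member was lower at an unadjusted p under 0.05 either, and DESeq2 and limma-voom called 0 lower. ALDH3A1 passed the filter only through the DHT+WBM libraries and AHRR reached the required level in 1 DHT library, whereas AHR, ARNT, CYP1A1, CYP1A2, CYP1B1 and TIPARP reached the required level in all 3 DHT libraries. Rises of at least 2-fold were called for 4 members, ALDH3A1, CYP1A1, CYP1A2 and CYP1B1, compared with 3.27% of all tested genes. In 7 members every DHT+WBM library lay above every DHT library, an order found in 31.1% of all tested genes. As the members were chosen with earlier results of these data known, these shares describe the list and do not test it.

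**Figure D1:**
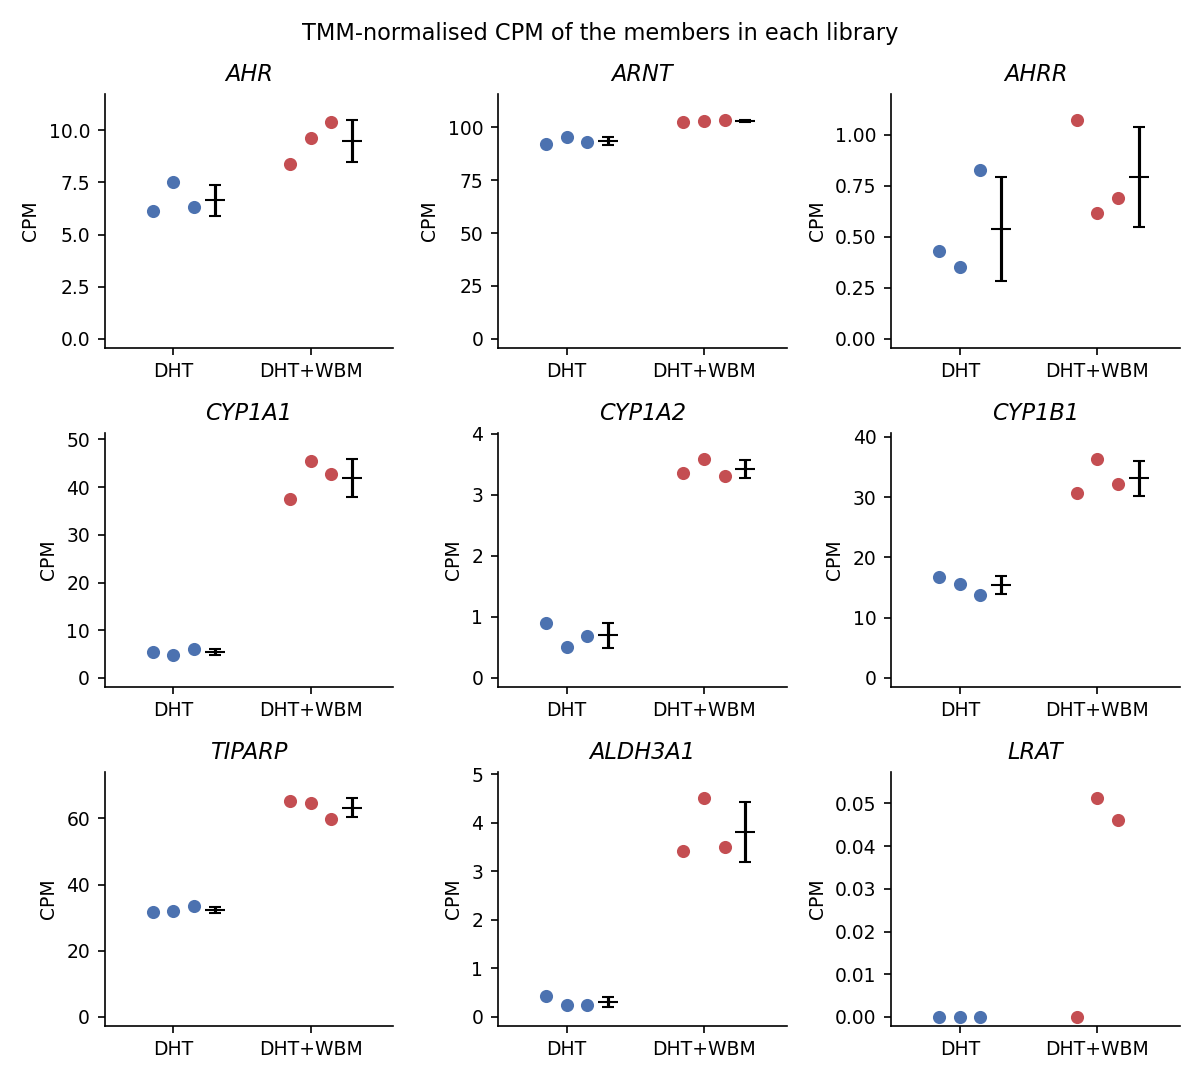
Each panel plots 1 gene, with TMM-normalised CPM on a linear axis from 0 and 1 point per library (blue DHT, red DHT+WBM), and black bars give the mean ± SD of 3 libraries except for LRAT. The groups are apart in 7 panels and overlap for AHRR and LRAT, and LRAT rests on 2 reads in all.

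The receptor gene itself was higher with the extract. AHR (chromosome 7, 17338276 to 17385775, plus strand, hg19) measured 6.11, 7.50 and 6.34 CPM in DHT replicates 1 to 3, and 8.38, 9.65 and 10.4 CPM in DHT+WBM replicates 1 to 3. The lowest DHT+WBM library was above the highest DHT library. The means were 6.65 ± 0.74 and 9.48 ± 1.02 CPM (SD, n = 3), a 1.43-fold rise, or 0.52 ± 0.11 (SE) on the log2 scale, with edgeR adjusted p = 7.40e-05. Of the distinct 50-base words in AHR transcripts of GENCODE 29, 28.9% also occur in transcripts of other genes, chiefly AC019117.2, a symbol that the deposited table does not list.

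Its partner ARNT (chromosome 1, 150782181 to 150849244, minus strand), which also pairs with the hypoxia factors, was far more abundant and moved little. ARNT measured 91.9, 95.6 and 93.1 CPM in DHT and 102, 103 and 103 CPM in DHT+WBM. The groups did not overlap, and the rise was 1.10-fold, or 0.14 ± 0.04 on the log2 scale, with edgeR adjusted p = 0.00498. Of all tested genes, 32.6% had a log2 fold change at or above that of ARNT, and 10.1% one at or above that of AHR.

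The 3 CYP1 genes, whose enzymes oxidise aromatic hydrocarbons and oestrogens, rose by different amounts. CYP1A1 (chromosome 15, 75011883 to 75017877, minus strand) measured 5.44, 4.88 and 6.04 CPM in DHT and 37.5, 45.4 and 42.9 CPM in DHT+WBM. Its lowest value with the extract was several times its highest value without it, with means of 5.46 ± 0.58 and 41.9 ± 4.04 CPM. The rise was 7.66-fold, 2.94 ± 0.09 on the log2 scale, with edgeR adjusted p = 7.06e-27. That change ranked 10 from the top among 13466 genes.

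CYP1A2 (chromosome 15, 75041184 to 75048941, plus strand), best known as a liver enzyme that clears caffeine, lies head to head with CYP1A1 across a gap of 23306 bases. It was rare, with 19, 10 and 14 counts in DHT and 69, 70 and 72 in DHT+WBM. The groups were well apart at 0.70 ± 0.20 and 3.42 ± 0.15 CPM, a 4.85-fold rise, or 2.28 ± 0.22 on the log2 scale, with edgeR adjusted p = 1.53e-11. The ratio between the summed counts per total count was 5.04, with a 95% interval of 3.61 to 7.16 that covers counting error only. CYP1A1 and CYP1A2 transcripts shared 0 words of 50 bases in GENCODE 29, a length chosen here since the read length is not given in the sources used here.

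CYP1B1 (chromosome 2, 38294746 to 38303323, minus strand), the family member typical of steroid-responsive tissues outside the liver, started higher and rose less. Its level was 16.8, 15.6 and 13.8 CPM in DHT and 30.7, 36.3 and 32.2 CPM in DHT+WBM. No DHT library came near the DHT+WBM range, and the rise was 2.15-fold, from 15.4 ± 1.51 to 33.1 ± 2.90 CPM (log2 fold change 1.10 ± 0.07, edgeR adjusted p = 6.58e-16). The 95% interval of its log2 fold change, 0.95 to 1.25, lay below those of CYP1A1, 2.76 to 3.11, and CYP1A2, 1.84 to 2.72.

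The makeup of the CYP1 reads therefore differed between the groups. CYP1B1 gave 72.6%, 74.3% and 67.2% of the summed CYP1 counts in DHT, and 43.0%, 42.6% and 41.1% in DHT+WBM. CYP1A1 gave 23.5%, 23.3% and 29.5% in DHT, and 52.3%, 53.2% and 54.7% in DHT+WBM. The groups did not overlap in either share, and every exact binomial 95% interval of a DHT library lay apart from those of the DHT+WBM libraries (CYP1A1, 25.1 to 34.1% in DHT replicate 3 and 49.8 to 54.9% in DHT+WBM replicate 1, the nearest pair), intervals that cover counting error only. CYP1A2 stayed a minor part, at 2.40 to 3.92% in DHT and 4.21 to 4.70% in DHT+WBM, and its intervals overlapped between the groups. Per kb of gene length, CYP1A1 made up 32.7 to 39.8% of the family in DHT and 62.8 to 65.0% in DHT+WBM. The family as a whole went from 21.6 ± 1.41 to 78.4 ± 6.87 CPM, a 3.64-fold difference of the means.

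**Figure D2:**
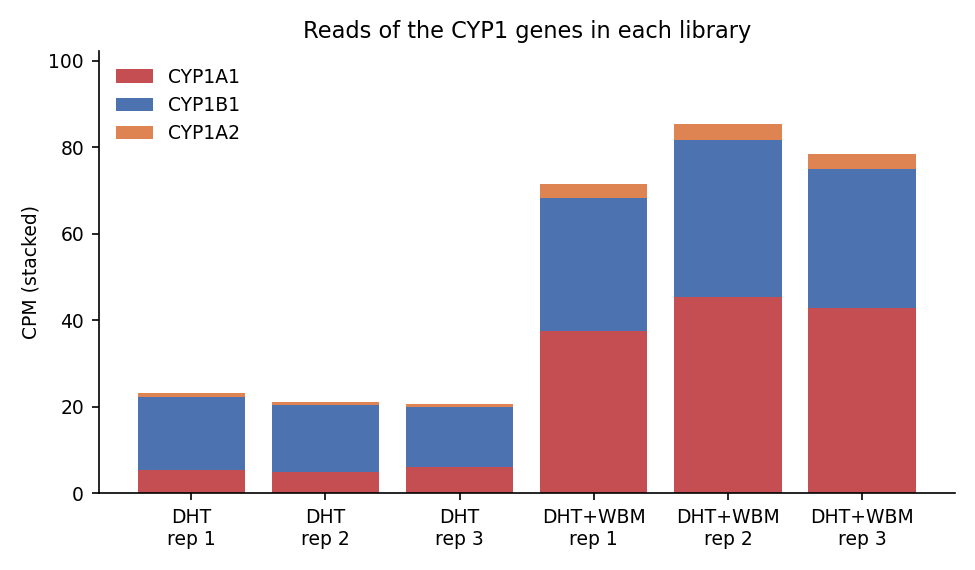
Stacked bars give the TMM-normalised CPM of CYP1A1, CYP1B1 and CYP1A2 in each of the 6 libraries, from 0. CYP1B1 is the largest block in the 3 DHT libraries and CYP1A1 in the 3 DHT+WBM libraries, while the total runs from 20.5 to 23.2 CPM in DHT and from 71.6 to 85.3 CPM in DHT+WBM.

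The call was made for 1 of the 2 feedback inhibitors, and the difference between them was not tested. TIPARP (chromosome 3, 156392205 to 156424557, plus strand), which ADP-ribosylates AHR, measured 31.8, 32.0 and 33.5 CPM in DHT and 65.2, 64.8 and 59.9 CPM in DHT+WBM. The libraries of each group lay close together and the groups far apart, by 1.95-fold, or 0.96 ± 0.05 on the log2 scale, with edgeR adjusted p = 2.08e-18. The antisense gene TIPARP-AS1 overlaps its span on the other strand and had 35 and 55 counts over the DHT and DHT+WBM libraries, against 1989 and 3901 for TIPARP.

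AHRR (chromosome 5, 304292 to 438405, plus strand), which competes with AHR for ARNT, was near the limit of counting. It had 9, 7 and 17 counts in DHT and 22, 12 and 15 in DHT+WBM, so the groups overlapped, at 0.54 ± 0.26 and 0.79 ± 0.24 CPM. The fitted difference, 0.56 ± 0.35 on the log2 scale, did not pass with edgeR adjusted p = 0.169, and its 95% interval, -0.14 to 1.26, includes both no change and the rise seen in TIPARP. Without DHT replicate 3, which had the most AHRR counts of its group, the log2 fold change was 1.01 and passed (edgeR adjusted p = 0.0348). The annotated span of AHRR overlaps PDCD6 on the same strand, a gene with 5010 and 5734 counts, so reads in the shared part could be assigned to either or lost.

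ALDH3A1 (chromosome 17, 19641298 to 19651746, minus strand), an aldehyde dehydrogenase that is a classical AHR target in dioxin-treated cells, showed the largest fitted change of the set, from very few reads. It had 9, 5 and 5 counts in DHT and 70, 88 and 76 in DHT+WBM. Every DHT+WBM library was far above the DHT libraries, with means of 0.31 ± 0.11 and 3.81 ± 0.62 CPM. The fitted change was 3.59 ± 0.26 on the log2 scale, with edgeR adjusted p = 9.09e-15. With 19 counts in all DHT libraries together, the ratio of counts per total count was 12.6 with a 95% counting interval of 7.91 to 21.4.

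LRAT (chromosome 4, 155665152 to 155674270, plus strand), which stores retinol as retinyl esters, was all but undetected. It had 0 counts in the 3 DHT libraries and 0, 1 and 1 in the DHT+WBM libraries. Both groups lie under the limit that a count of 0 allows, 3 counts or 0.140 to 0.157 CPM per library, so no fold change is given and a difference was not detectable at this depth.

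**Figure D3:**
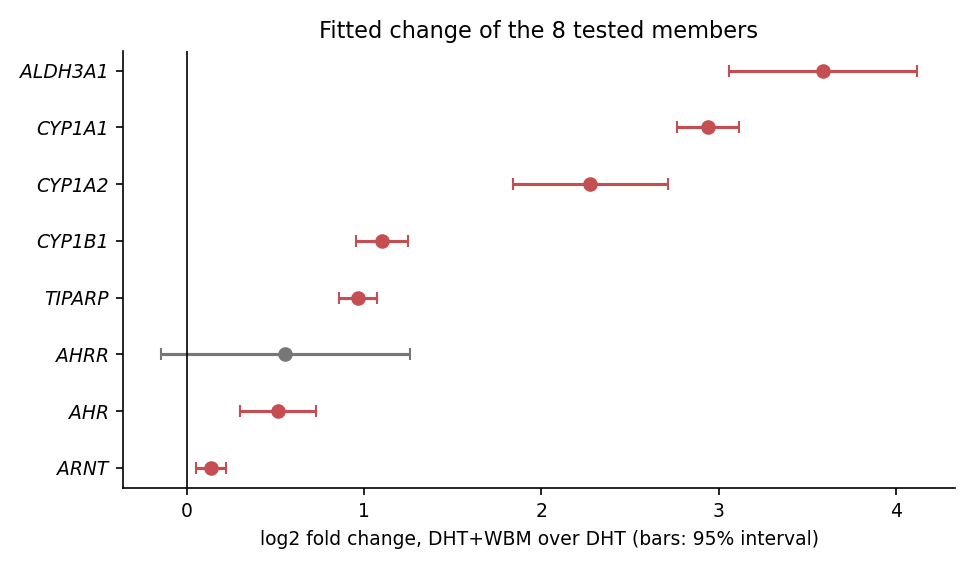
Points are fitted log2 fold changes of the 8 tested members, DHT+WBM over DHT, with 95% intervals (red called higher, grey not called). ALDH3A1, CYP1A1 and CYP1A2 lie above 1.8 at their lower bounds, ARNT lies closest to 0, and AHRR alone crosses 0.

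Levels of different genes were compared as CPM per kb of deposited gene length. In DHT the order was ARNT at 18.8 ± 0.38, TIPARP at 7.17 ± 0.20, CYP1B1 at 2.99 ± 0.29, CYP1A1 at 1.73 ± 0.18, AHR at 1.07 ± 0.12 and CYP1A2 at 0.22 ± 0.06, and each pair of neighbours in that order was separate in all libraries. AHRR at 0.078 ± 0.037 and ALDH3A1 at 0.076 ± 0.026 came next and overlapped. In DHT+WBM, ARNT was still highest at 20.7 ± 0.11, but CYP1A1 at 13.3 ± 1.28 now overlapped TIPARP at 14.0 ± 0.65 and stood above CYP1B1 at 6.43 ± 0.56. ALDH3A1 at 0.94 ± 0.15 overlapped CYP1A2 at 1.10 ± 0.05, and AHRR at 0.12 ± 0.04 was below both. AHR itself was 1.52 ± 0.16 CPM per kb, below CYP1B1 and above CYP1A2 in every library of both groups.

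Genes for the receptor's chaperones and nuclear partners went both ways. Of 18 tested, 7 fell, 4 rose and 7 did not pass, and their median was 0.00 on the log2 scale, the same to that precision as over all tested genes. The shares were 38.9% lower and 22.2% higher, against 29.0% and 29.2% of all tested genes. HSP90AB1, the more constitutive cytosolic HSP90 gene, fell by 0.45 on the log2 scale (2111 ± 41.7 to 1549 ± 25.3 CPM, edgeR adjusted p = 3.36e-13). PTGES3, the gene of p23, fell by 0.22, and XPO1, the nuclear exporter, fell by 0.26. HSP90AA1 fell by 0.12 (edgeR adjusted p = 0.0107), a call lost without DHT replicate 2 (-0.08, edgeR adjusted p = 0.0765), with upper-quartile factors (0.057) and with library totals alone (0.109). RELB, an NF-kB subunit that can dimerise with AHR, rose from 7.37 ± 0.89 to 13.3 ± 0.70 CPM, and KLF6, a zinc-finger factor reported to partner AHR at non-classical elements, fell by 0.49. With library totals alone, 7 genes of this list were higher.

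Other bHLH-PAS genes were called in 1 direction only. Of 13 listed, 9 were tested, and edgeR called 6 higher and 0 lower (0 at an unadjusted p under 0.05, and 0 by DESeq2 and limma-voom), with a median of 0.21 on the log2 scale. Over all tested genes, 29.2% were called higher and 29.0% lower. The number of this list called higher was 5 to 8 over the alternative settings. NPAS1 rose from 0.64 ± 0.18 to 2.34 ± 0.24 CPM and reached the filter level in 2 of 3 DHT libraries. EPAS1, which encodes the hypoxia factor HIF-2-alpha and dimerises with ARNT, rose from 7.54 ± 0.93 to 12.0 ± 0.61 CPM. CLOCK, a circadian activator, and NPAS2, its paralogue, rose by log2 fold changes of 0.27 and 0.50, and HIF1A by 0.13. ARNT2, the close relative of ARNT, had a log2 fold change of 0.17 and did not pass, as did SIM2 at -0.07.

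Further genes described as AHR targets in other cell types were mixed. Of 23 listed, 15 were tested, of which 5 rose, 4 fell and 6 did not pass, or 33.3% higher against 29.2% of all tested genes. NQO1, a quinone reductase gene that NRF2 also drives, rose from 245 ± 13.2 to 910 ± 15.6 CPM, or by 1.89 ± 0.04 on the log2 scale. The efflux transporter gene ABCG2 rose from 4.58 ± 0.13 to 7.85 ± 1.03 CPM. UGT1A6, a glucuronosyltransferase gene, passed the filter only through DHT+WBM, with 3 counts in all DHT libraries and 41 in all DHT+WBM libraries, a ratio of 14.0 with a 95% counting interval of 4.47 to 70.8, and UGT1A genes share exons, so the split between them is uncertain. SLC7A5, an amino acid transporter gene, and ALDH1A3, which makes retinoic acid, fell by 0.61 and 0.49 on the log2 scale. SERPINB2 and EREG, known targets elsewhere, had 0 counts in every library.

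Retinoid genes, set beside LRAT, gave 6 that fell, 3 that rose and 5 that did not pass among 14 tested of 25 listed. These were 42.9% lower and 21.4% higher, against 29.0% and 29.2% of all tested genes. RDH11, an androgen-regulated retinal reductase gene, fell by 0.52 (638 ± 17.7 to 445 ± 10.4 CPM), and the aldehyde dehydrogenase gene ALDH1A1 fell by 0.81 from a level of 3.54 ± 0.37 CPM. The retinoic acid receptor gene RARB fell from 8.52 ± 0.41 to 4.71 ± 1.01 CPM. Over the alternative settings, the number that rose was 0 to 3 and the number that fell was 4 to 6, with 4 by DESeq2. Without members, 13 other P450 and reductase genes were tested, of which 6 rose (46.2%) and 4 fell (30.8%). CYP3A5, a steroid and drug hydroxylase gene, rose from 0.95 ± 0.15 to 4.25 ± 0.53 CPM, or by 2.16 ± 0.19 on the log2 scale, while CYP2U1 fell by 0.72. POR, which passes electrons to all microsomal P450 enzymes, rose with a log2 fold change of 0.23. Relatives of TIPARP split, with 4 of 10 tested higher (40%) and 3 lower (30%), where 29.2% and 29.0% of all tested genes were higher and lower. PARP4 rose by a log2 fold change of 0.62, PARP14 and PARP9 by 0.32 and 0.30, and the antiviral gene ZC3HAV1 fell by 0.51.

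**Figure D4:**
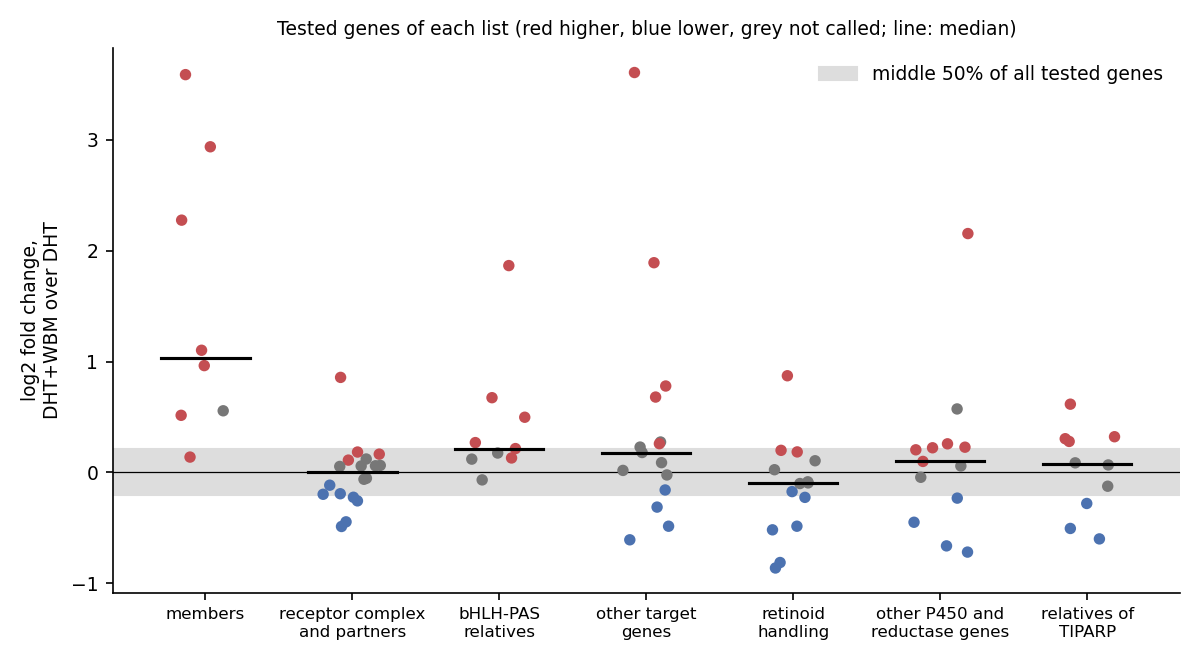
Each point is the log2 fold change (DHT+WBM over DHT) of 1 tested gene of a list, red where called higher, blue where called lower and grey where not called, with the list's median as a line and the middle 50% of all tested genes shaded. The members' median is 1.03, while the medians of the other lists lie between -0.10 and 0.21.

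The genes lying next to the members did not all follow them. Of 51 neighbours that are not members, 32 were tested, of which 13 were higher, 6 lower and 13 not called, where 29.2% and 29.0% of all tested genes were higher and lower. Beside CYP1A1 and CYP1A2, EDC3 and CSK were the nearest genes on either side. EDC3, an mRNA decapping factor gene 23.5 kb from CYP1A1, rose slightly (log2 fold change 0.21 ± 0.05, edgeR adjusted p = 0.000163). The kinase gene CSK, 25.5 kb from CYP1A2, had a log2 fold change of 0.02 and CLK3 one of -0.08, and neither passed. Next to TIPARP, the noncoding gene LINC00886, 40.6 kb away on the other strand, rose from 6.60 ± 0.15 to 15.9 ± 1.24 CPM (log2 fold change 1.27 ± 0.09, edgeR adjusted p = 5.30e-15), while SSR3, 119 kb away, fell by 0.58. ALDH3A2, a paralogue 60.4 kb from ALDH3A1 that oxidises fatty aldehydes, rose from 229 ± 9.04 to 394 ± 4.52 CPM. CTSS, a lysosomal protease gene 43.7 kb from ARNT, rose by 1.06 ± 0.13 on the log2 scale (edgeR adjusted p = 6.87e-09). RMDN2, 0.461 kb from CYP1B1, rose by 0.40 on the log2 scale with edgeR adjusted p = 0.0298, a call lost in 5 of 15 alternatives. CDC42EP3, 395 kb from CYP1B1, fell by 0.73 on the log2 scale, and AGR2, a secreted-pathway disulfide isomerase gene 494 kb from AHR, fell by 0.80.

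**Figure D5:**
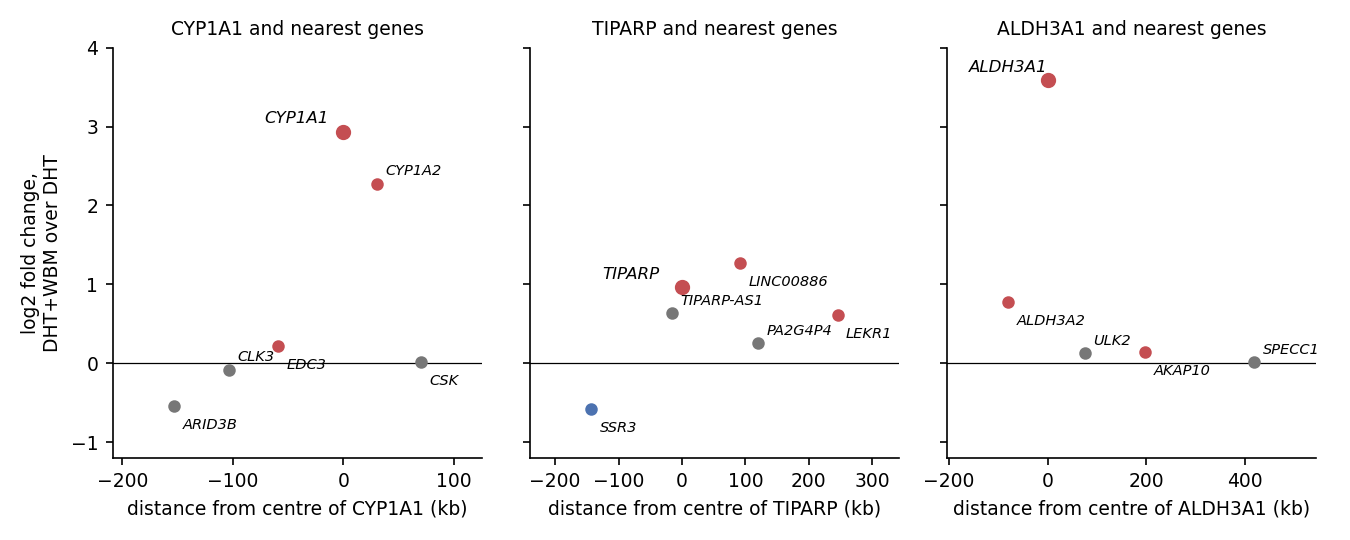
Log2 fold change (DHT+WBM over DHT) is plotted against the distance in kb between the centre of each tested neighbour and that of CYP1A1, TIPARP or ALDH3A1, red where called higher, blue where lower and grey where not called. CYP1A1 and CYP1A2 stand above the genes around them, LINC00886 stands at 1.27 beside TIPARP at 0.96, and ALDH3A2 at 0.78 is the next highest point beside ALDH3A1.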

How the data were processed

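RNA was measured by sequencing in 6 libraries of LNCaP cells, 3 per group, grouped by sample title and matched to table columns by the code in that title. The values are deposited, unnormalised read counts for each gene, made by the authors, with gene positions, strand and length in kb. Per the submitters' processing notes, bcl2fastq 2.18.0.12, STAR 2.6.0, HTSeq 0.6.0, edgeR 3.28.1 and genome hg19 were used; which step each tool did, the annotation and the strand setting were not given, so reads of a gene and of an antisense gene across it cannot be separated.

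From these counts, edgeR 4.0.16 (R 4.3.3) was run with filterByExpr (minimum count 10, minimum total 15), TMM factors of 0.979 to 1.02, and the two-sided quasi-likelihood test over 13466 genes with Benjamini-Hochberg adjustment. SE is the absolute log2 fold change over the square root of F. Alternatives were other scaling factors, filters, DESeq2 1.42.0, limma-voom (limma 3.58.1), a replicate block, an adjusted p under 0.01, and leaving out each library. Members, gene lists and settings were chosen with earlier results of these data known. From each list, up to 4 genes with the smallest adjusted p are named, plus the 3 nearest genes on each side of a member (those at 2-fold or beside CYP1A1 and CYP1A2). HIF1A, ARNT2, SIM2, HSP90AA1, PTGES3, UGT1A6, SERPINB2, EREG, POR and the other neighbours were named after their values were seen. In the receptor complex list, 1 gene enters the counts and is not named here.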

Additional observations from a re-analysis of the deposited data

How the results depend on the processing

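The 7 called members stayed higher and past the threshold in all 105 checks (15 alternatives each). The alternative with adjusted p under 0.01 kept the main fit and changed only the threshold. Log2 fold changes were 0.43 to 0.61 for AHR, 0.12 to 0.18 for ARNT, 2.86 to 3.02 for CYP1A1 and 2.09 to 2.51 for CYP1A2. They were 1.03 to 1.17 for CYP1B1, 0.93 to 1.01 for TIPARP and 3.44 to 3.90 for ALDH3A1. AHRR ranged from 0.27 to 1.01, with edgeR, DESeq2 or limma-voom adjusted p of 0.0348 to 0.591, and passed only without DHT replicate 3; a filter that asked for 1 CPM or more in 3 libraries removed it. Of 119 other listed, neighbouring or similar genes, 83 kept their side of the threshold throughout and 36 lost or gained a call at least once. Changes of sign with a call in the main or the alternative fit numbered 0. Some genes without a call did change sign, such as SLC7A11 (log2 fold change -0.02 to 0.06). Over all genes, 3440 to 3791 were higher and 3642 to 3789 lower when 1 library was left out, against 3928 and 3909 with all. The even split depends on the scaling: library totals alone gave 4675 higher and 3200 lower (59.4% of calls higher, 50.1% with TMM), upper-quartile factors 4426 and 3403, and DESeq2 3262 and 3393. Same-numbered libraries did not deviate together (r = 0.0498, 0.0374 and 0.0192), and DHT replicate 2 correlated best with DHT+WBM replicate 3 (r = 0.0465), so the numbers are not treated as pairs. With the replicate block, 4079 genes were higher and 4030 lower, and 7 members were higher. Depth limits AHRR, LRAT and the DHT values of ALDH3A1 and CYP1A2, where counting error alone gives a coefficient of variation of 26.4% for CYP1A2 and 39.7% for ALDH3A1.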

Other observations

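Genes whose profile over the 6 libraries was most like a member's were found by the root-mean-square difference of row-centred log2 CPM, among 10737 tested genes with a mean of at least 5 CPM. Closest to CYP1A1 were HMOX1, the heme oxygenase gene (difference 0.228, from 17.8 ± 1.72 to 102 ± 2.72 CPM), SERPINB7, a serine protease inhibitor gene (0.373), and DIO3, the gene of the thyroid hormone inactivating deiodinase (0.416, from 8.55 ± 0.26 to 39.6 ± 5.02 CPM). Closest to TIPARP were EFCAB2 (0.017), BDH2, a short-chain dehydrogenase gene (0.0389), and IPCEF1 (0.039), and 6 genes lay within 0.05 of it. Closest to AHR were SAMD12 (0.0444), JAM3, a junctional adhesion gene (0.0579), and TRAPPC2B (0.0597). With 2 groups of 3 libraries, such likeness mostly restates a similar change between the groups.

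The spread of CYP1A1 between the DHT+WBM libraries, a coefficient of variation of 9.64%, was larger than the 3.41% that counting error gives, and that of CYP1B1 was 8.76% against 3.84%. ARNT varied by 0.535% against 2.17%, and CYP1A2 by 4.36% against 11.9%. In DHT, CYP1A1 varied by 10.7% against 9.46%, CYP1B1 by 9.84% against 5.63%, ARNT by 2.01% against 2.29% and CYP1A2 by 29% against 26.4%. Each spread comes from 3 libraries and is imprecise, and its difference from counting error was not tested.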
